A study of Homo sapiens with 9 samples.

Results

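NEAT1 and MALAT1 are long non-coding RNAs encoded close together on the plus strand of chromosome 11, and the QKI‐5 peaks that lay on them are described here. The peaks came from HITS‐CLIP, in which living cells are irradiated with ultraviolet light so that proteins are fixed to RNA in contact with them, and the fragments recovered with an antibody are sequenced. All libraries came from mesHMLE cells, a mesenchymal line obtained from HMLE human mammary epithelial cells by prolonged exposure to TGF‐β1, and all cells were crosslinked at 600 mJ/cm2. The 7 QKI‐5 immunoprecipitation libraries comprised 3 from the gel region of monomeric QKI, 3 from that of the dimer and 1 further dimer library made with SuperScript IV. They are technical replicates, and 2 size‐matched input libraries served as their control. The authors pooled them into a single list of peaks, so replicate error cannot be given for any value below, and how many reads each library contributed is unknown. A peak was taken when it lay on the plus strand and its centre fell within the gene span of NEAT1 (chr11:65190245-65213011, hg19, ENSG00000245532.11_10) or of MALAT1 (chr11:65265111-65275544, ENSG00000251562.11_10). This gave 169 of the 24037 peaks (0.703%), 158 in NEAT1 and 11 in MALAT1. No minus‐strand peak had its centre in either span.

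QKI is an RNA‐binding protein of the STAR family, and QKI‐5 is its nuclear isoform. It binds the hexamer ACUAAC, written ACTAAC in the genome, with a shorter UAAC core as the second element of its recognition site. NEAT1 is the architectural RNA of paraspeckles, nuclear bodies that assemble on its long isoform, while the short isoform shares its 5′ end. MALAT1 is an abundant RNA of nuclear speckles, which hold splicing factors. The peak list itself measures neither the location of an RNA nor its amount. Peak height is the whole number the authors gave each peak, taken here as the pile‐up of the pooled reads, so a taller peak may come from more RNA or from more contact per molecule of RNA, and these cannot be told apart. The RNAs were chosen by the number and height of their peaks in this list, so the counts, heights and positions below are a description without a test.

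The sequences below belong to the tallest NEAT1 peaks that held ACTAAC, with peaks numbered from the 5′ end of each RNA. Capitals mark ACTAAC on the RNA strand. Peak 43 (chr11:65196048-65196199) had a height of 1416, peak 18 (chr11:65192588-65192779) of 647, peak 143 (chr11:65210705-65210823) of 443 and peak 58 (chr11:65198122-65198329) of 316.
NEAT1 peak 43: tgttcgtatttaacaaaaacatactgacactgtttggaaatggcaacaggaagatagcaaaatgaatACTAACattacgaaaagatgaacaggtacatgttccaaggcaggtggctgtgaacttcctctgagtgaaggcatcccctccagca
NEAT1 peak 18: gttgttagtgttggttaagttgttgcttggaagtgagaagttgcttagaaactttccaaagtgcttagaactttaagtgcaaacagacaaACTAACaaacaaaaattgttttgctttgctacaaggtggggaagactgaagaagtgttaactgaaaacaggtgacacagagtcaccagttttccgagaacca
NEAT1 peak 143: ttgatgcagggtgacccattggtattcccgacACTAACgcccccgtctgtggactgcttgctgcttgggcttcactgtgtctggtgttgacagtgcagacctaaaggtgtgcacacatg
NEAT1 peak 58: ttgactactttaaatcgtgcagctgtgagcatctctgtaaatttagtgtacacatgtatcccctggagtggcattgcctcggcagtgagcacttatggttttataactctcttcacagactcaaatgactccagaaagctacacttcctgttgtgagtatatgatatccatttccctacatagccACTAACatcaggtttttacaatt
Each of these peaks held a single copy of the hexamer.

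The tallest peaks without ACTAAC are shown for contrast, and here capitals mark the TAAC core. NEAT1 peak 1 (chr11:65190268-65190424) had a height of 1870 and NEAT1 peak 25 (chr11:65193475-65193595) of 1555. MALAT1 peak 3 (chr11:65272648-65272780) had a height of 3408 and MALAT1 peak 8 (chr11:65273189-65273433) of 3131.
NEAT1 peak 1: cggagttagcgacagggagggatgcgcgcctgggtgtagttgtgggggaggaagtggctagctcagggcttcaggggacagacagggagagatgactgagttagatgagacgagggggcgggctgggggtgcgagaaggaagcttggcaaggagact
NEAT1 peak 25: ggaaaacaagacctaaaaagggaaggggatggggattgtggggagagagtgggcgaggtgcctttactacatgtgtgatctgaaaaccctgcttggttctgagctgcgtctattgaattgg
MALAT1 peak 3: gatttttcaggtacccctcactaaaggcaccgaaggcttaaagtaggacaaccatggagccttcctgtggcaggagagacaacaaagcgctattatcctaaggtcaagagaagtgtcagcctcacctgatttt
MALAT1 peak 8: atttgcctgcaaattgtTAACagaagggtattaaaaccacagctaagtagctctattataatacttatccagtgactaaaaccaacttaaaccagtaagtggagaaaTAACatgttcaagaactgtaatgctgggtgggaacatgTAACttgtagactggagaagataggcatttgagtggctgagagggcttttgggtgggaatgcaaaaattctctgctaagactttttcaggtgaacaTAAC
MALAT1 peak 8 held 4 copies of TAAC, and the other 3 peaks held none.

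QKI‐5 peaks covered most of NEAT1. Together the 158 peaks occupied 17467 nt of the 22767 nt gene span (76.7%), at 6.94 peaks per kb. The first peak began 23 nt inside the annotated start and the last, peak 158 (chr11:65212864-65212975, height 427), ended 36 nt before the annotated end. Peaks therefore reached along the whole length of the RNA. Of the plus‐strand peaks outside the span, the nearest upstream had a height of 21 and lay 9516 nt away, and the nearest downstream was the first MALAT1 peak, 53476 nt away. Annotated exons cover the whole span, so all of these peaks are exonic.

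**Figure D1:**
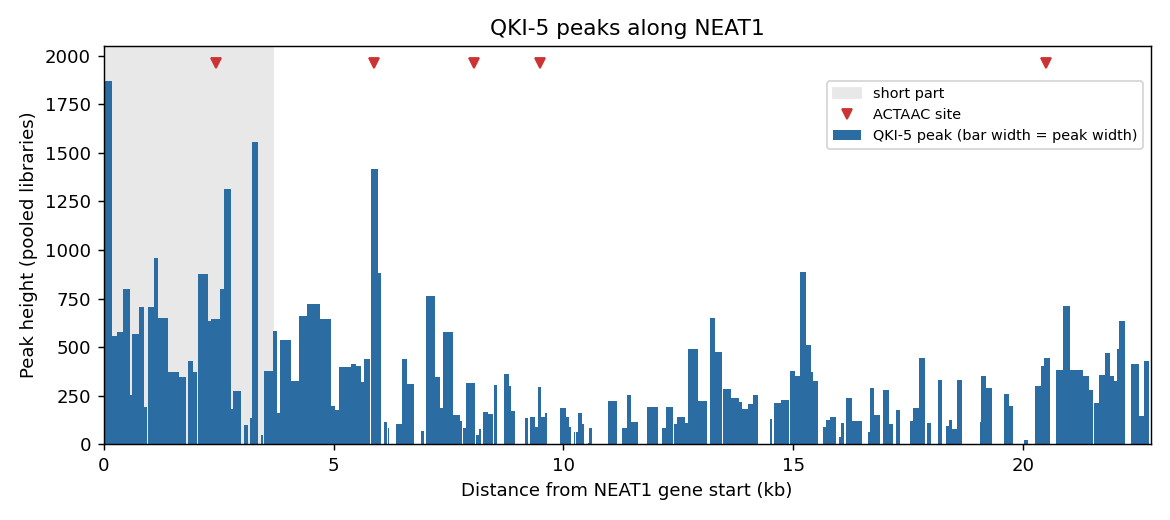
QKI‐5 peaks along NEAT1. Each bar is a peak at its distance in kb from the gene start, drawn to its width, with its height in the pooled libraries on the vertical axis. The grey area is the part shared with the short isoform, and the triangles mark the 5 ACTAAC sites. Peaks run from end to end, and 4 of the 5 tallest lie in the grey area.

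NEAT1 peaks were mostly adjoining rather than separate. Of the 157 gaps between neighbouring peaks, 80 were of at most 1 nt and 19 were longer than 100 nt. The peaks formed 78 runs, of which 44 were single peaks and the largest was 13 adjoining peaks, from 24 to 1780 nt after the gene start. A run of 12 peaks followed between 4248 and 6037 nt. Adjoining peaks made up 72.2% of NEAT1 peaks and 13.9% of the other nuclear peaks, so a NEAT1 peak was often a piece of a longer covered stretch. The authors' caller was set to separate summits within an enriched region. Neighbouring summits were a median of 125 nt apart (quartiles 84 and 169 nt). The 1 nt between adjoining peaks would vanish if the starts in the list were counted from 1.

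The short isoform region, from the gene start to 3684 nt (the furthest end of the short transcripts that begin at the gene start), carried the taller peaks. It held 28 peaks (7.60 per kb) that covered 92.4% of it, with a median height of 562.5 (quartiles 269.25 and 730). The remaining 19083 nt, called long‐only here, held 130 peaks (6.81 per kb) that covered 73.7%, with a median height of 216 (quartiles 122.75 and 358.5). The density of peaks thus differed by 1.12 times between these parts, and the median height by 2.60 times. Reads in the shared part can come from either isoform, and the part of this in the difference in height was not tested. When adjoining peaks were merged, the order of the densities turned, with the short part at 0.676 times the long‐only part (9 and 69 merged peaks). Some short transcripts that begin further in run past 3684 nt, and the centre of peak 29 lies in exons of 4 transcripts. With the boundary at the furthest end of any short transcript, the parts held 29 and 129 peaks, and the densities differed by 1.14 times.

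Of the 5 tallest NEAT1 peaks, 4 lay in the short part. Peak 1, at the 5′ end, had a height of 1870 and was the 6th tallest of the whole list. Peak 25 (1555, 9th) lay close to the end of the short part. Peak 20 (chr11:65192862-65193007) reached 1313 and peak 10 (chr11:65191342-65191425) reached 960. The exception was peak 43 at 1416, 5804 nt from the gene start and so only in the long transcript, which was also the only one of the 5 that held ACTAAC.

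Along the RNA, the median height did not fall steadily with distance. In 1 kb bins it was 572 in the first kb, 428 between 1 and 2 kb and 647 between 2 and 3 kb. It was 159 between 3 and 4 kb, where the short part ends, and again 647 between 4 and 5 kb. The lowest bin lay between 10 and 11 kb, with a median of 86.5 from 8 peaks and 44.6% of its length covered. Heights were larger again towards the 3′ end, where the last, shorter bin had a median of 420.5 from 6 peaks. Low bins were not confined to the middle, since medians of 110.5, 126.5, 120 and 125 were found between 6 and 7, 12 and 13, 16 and 17, and 18 and 19 kb. The last 3 bins had medians from 351 to 420.5. Coverage was lowest between 18 and 19 kb, at 42.3%, and the longest gap, of 392 nt, began there and ran from 18668 to 19059 nt.

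**Figure D2:**
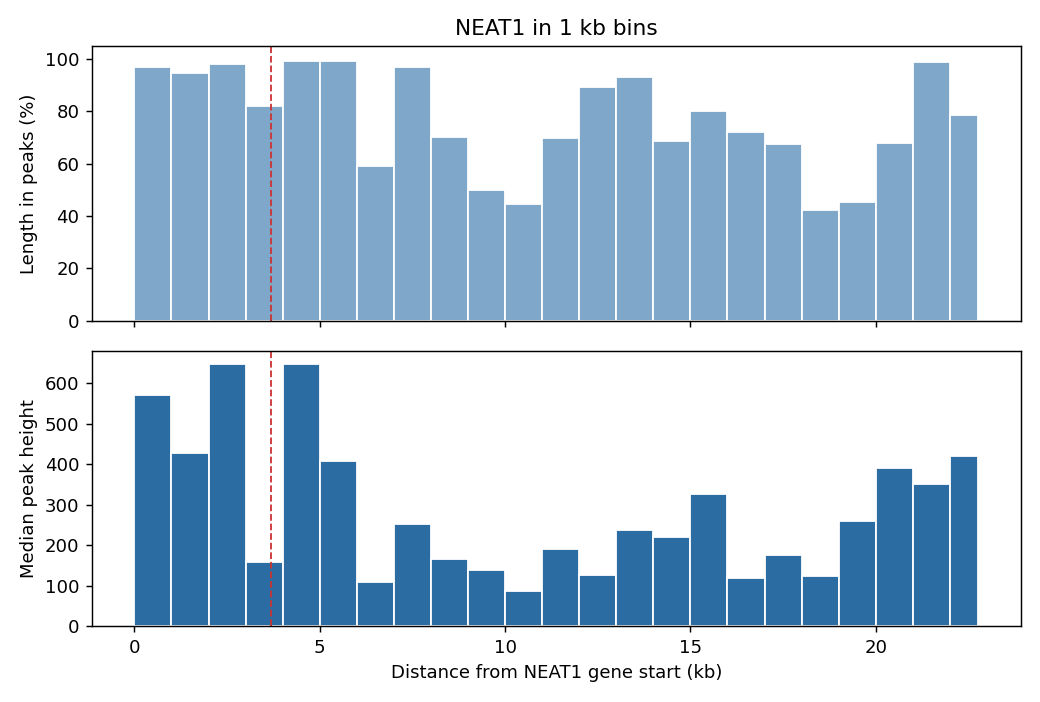
NEAT1 in bins of 1 kb from the gene start (the last bin is shorter). The upper bars give the percentage of each bin covered by peaks and the lower bars the median peak height, and the dashed line marks the end of the short part. Both are low between 10 and 11 kb, at 44.6% and 86.5.

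The share of 30 nt words that occur once in the genome was 94.7% over NEAT1, 96.6% inside its peaks and 91.2% in the uncovered stretches. In the longest gap it was 99.7%, and among the 5 longest gaps it was lowest, at 79.7%, in the one after peak 101. The share was thus lower outside peaks than inside, and its part in where peaks were called was not tested.

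MALAT1 showed a different layout. Its 11 peaks covered 1156 nt, or 11.1% of the 10434 nt span, at 1.05 peaks per kb. The annotation holds 66 MALAT1 transcripts, and their commonest start and end enclose 7425 nt (chr11:65266516-65273940), of which 15.2% was covered. The start and the end were taken separately, and only 19 of the 66 transcripts begin at that start and 11 finish at that end. Peaks 2 to 9 formed a cluster of 1006 nt (chr11:65272537-65273542) that began 6021 nt after the commonest start and ended 398 nt before the commonest end. Peaks covered 99.2% of this cluster, and no gap within it exceeded 2 nt. A stretch of 5961 nt before the cluster held no peak, and all of its 5932 words of 30 nt occurred once in the genome.

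**Figure D3:**
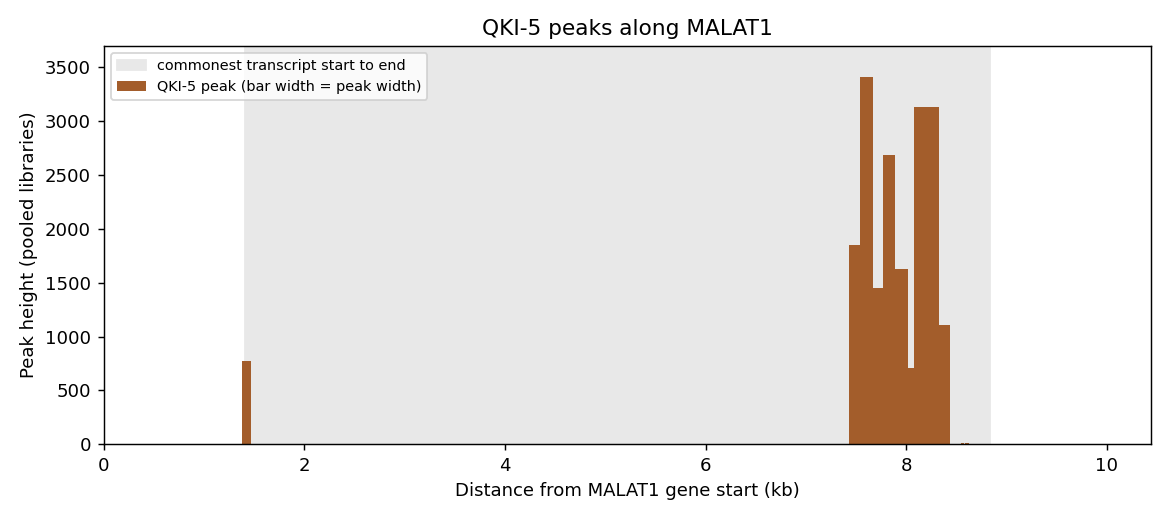
QKI‐5 peaks along MALAT1. Each bar is a peak at its distance in kb from the start of the gene span, drawn to its width, with its height in the pooled libraries on the vertical axis, and the grey area runs from the commonest transcript start to the commonest end. A peak of height 770 stands at the commonest start, and 8 peaks of 707 to 3408 stand together near the 3′ end.

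Within the cluster the heights ranged from 707 to 3408, with a median of 1737. The heights from 5′ to 3′ were 1847, 3408, 1454, 2685, 1627, 707, 3131 and 1108. Tall and lower peaks followed each other without a single maximum. The 5 tallest were peaks 3 and 8, shown above, and peak 5 (chr11:65272882-65272999, 2685), peak 2 (chr11:65272537-65272646, 1847) and peak 6 (chr11:65273001-65273122, 1627). The remaining peaks stood apart from the cluster. Peak 1 (chr11:65266487-65266575) had a height of 770 and began 29 nt before the commonest start, while peaks 10 and 11, 3′ of the cluster, had heights of 12 and 13. Annotated exons together cover the whole MALAT1 span.

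Both RNAs carried some of the tallest peaks of the list. The 10 tallest peaks of all included 6 from MALAT1 and 2 from NEAT1, and the 100 tallest included 9 and 45. The median height was 255 in NEAT1 (quartiles 133.75 and 414, range 6 to 1870), 1454 in MALAT1 (range 12 to 3408) and 23 in the other nuclear peaks (quartiles 18 and 32, range 5 to 42903). At or above the 99th percentile of the list, a height of 229, stood 84 of 158 NEAT1 peaks (53.2%) and 9 of 11 MALAT1 peaks (81.8%), against 0.974% of all nuclear peaks, members included. At the 90th percentile, a height of 55, the counts were 152 and 9, against 10.1% of all nuclear peaks. Below the median height of the list were 4 peaks, NEAT1 peaks 26 (height 6) and 80 (height 8) and MALAT1 peaks 10 and 11. Median width was 101 nt in NEAT1, 108 nt in MALAT1 and 61 nt in the other nuclear peaks. The ranges overlapped, at 8 to 282 nt, 27 to 245 nt and 1 to 389 nt. Across the 158 NEAT1 peaks, which share the same libraries and RNA, width and height had a Spearman rho of 0.573. Across the 23850 other nuclear peaks it was 0.333, so taller peaks were also wider there.

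**Figure D4:**
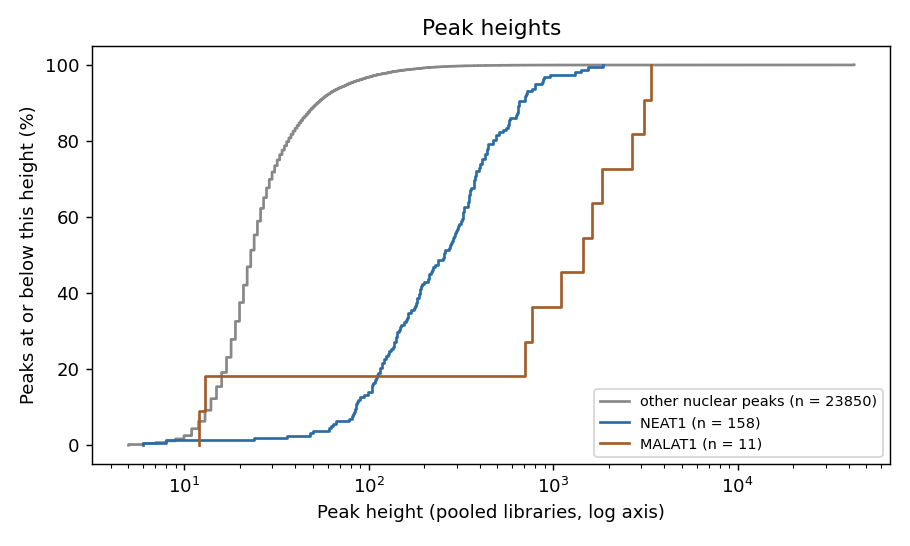
Cumulative distribution of peak heights. The horizontal axis is peak height in the pooled libraries on a log axis and the vertical axis the percentage of peaks at or below it, for NEAT1 (158 peaks), MALAT1 (11 peaks) and the other nuclear peaks (23850). The medians are 255, 1454 and 23.

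Among genes with at least 10 peaks centred in their exons, NEAT1 had the highest density, rank 1 of 76, where the median was 1.50 peaks per kb of exon. The most similar were PEA15 (5.43), PRRT2 (5.06), DVL3 (4.44), ARGLU1 (4.15) and C6orf62 (3.40), all protein‐coding. MALAT1, at 1.05, was rank 49. NEAT1 thus stood out by the number of its peaks per length and by their height. MALAT1 stood out by height, with 9 of its 11 peaks at or above 229. Adjoining peaks were counted separately in this ranking. Merging left 78 peaks in NEAT1, and the ranking was not repeated with merged peaks. Counted over the whole gene span, NEAT1 was the second gene, after NAV2, which had 186 peaks of which 2 were exonic.

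The QKI hexamer ACTAAC was rare in NEAT1 peaks. It occurred on the RNA strand in 5 of 158 NEAT1 peaks (3.16%, 95% Wilson interval 1.36 to 7.19%) and in 2410 of the 23850 other nuclear peaks (10.1%, interval 9.73 to 10.5%). The difference was −6.94 percentage points (Newcombe interval −8.79 to −2.89), and the odds ratio was 0.319 (Fisher's exact test, two‐sided, p = 0.00199, adjusted p = 0.00795 over 4 tests). This result depended on how adjoining peaks were counted. With adjoining peaks merged, the shares were 5 of 78 (6.41%) and 2383 of 22094 (10.8%), with an exact p of 0.272 (adjusted 0.668). Among adjoining peaks alone they were 4.39% and 9.26%, with an exact p of 0.0949 (adjusted 0.380). Peaks of a single RNA are not replicates, and the intervals cover counting error only. The NEAT1 span held only 5 ACTAAC sites and all lay inside peaks, so no more of its peaks could have held one. The share is thus bounded by the sequence of the RNA and by how many peaks were called on it. For that reason the test cannot show whether bound parts of NEAT1 lack the motif.

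Narrower sets were also compared, with the same limit that adjoining peaks of a single RNA are counted separately. Each adjusted p covers only the main tests, not the number of settings tried. The ACTAAC share was 9.15% in the 1979 other peaks of lncRNA genes (exact p = 0.00766, adjusted 0.0306) and 8.94% in the 4796 other exonic peaks (exact p = 0.00919, adjusted 0.0368). Among other nuclear peaks in the top 10% by height, where most NEAT1 peaks belong, it was 19.5%, against 3.29% of the 152 NEAT1 peaks in that top 10% (exact p = 9.42e-09, adjusted 3.77e-08). With adjoining peaks merged, 6.41% of NEAT1 peaks held the motif, against 9.42% of the lncRNA set (exact p = 0.548, adjusted 0.822) and 9.90% of the exonic set (exact p = 0.440, adjusted 0.822), and these calls were lost. Among merged peaks in the top 10% by height, the shares were 5 of 73 (6.85%) and 445 of 2074 (21.5%), with an exact p of 0.00120 (adjusted 0.00479). The span holds 5 ACTAAC sites, so in none of these comparisons could more than 5 NEAT1 peaks hold one. For that reason these tests, too, cannot show whether bound parts of NEAT1 lack the motif. The sets of the top 10% share only a lowest height of 55 and were not matched in height, which was also used to choose the RNAs. Before merging, 84 of the 152 NEAT1 peaks and 141 of the 2259 other peaks in them reached a height of 229. Counted per length, there were 0.286 sites per kb of NEAT1 peak and 1.64 per kb of the other peaks, where even use of the 4 bases would give 0.244. NEAT1 as a whole held 0.220 per kb.

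**Figure D5:**
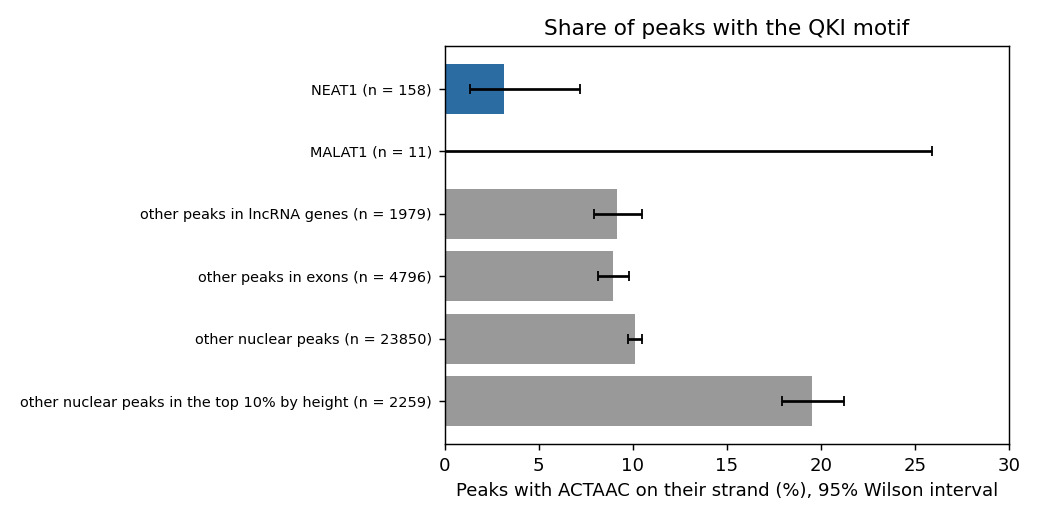
Percentage of peaks with ACTAAC on their own strand, with 95% Wilson intervals as error bars, in NEAT1, MALAT1 and sets of other peaks, whose numbers stand beside the names. NEAT1 lies at 3.16% and the other nuclear peaks at 10.1%, while MALAT1, whose span holds no ACTAAC, lies at 0 of 11 peaks with an interval that reaches 25.9%.

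All 5 ACTAAC sites of NEAT1 lay inside peaks. Since 73.3% of possible positions did so, this was 1.36 times the even share (exact binomial test, two‐sided, p = 0.334, adjusted p = 0.668). With 5 sites this is the highest ratio possible, so the test could not have called an excess and nothing is concluded from it. One site was in the short part, in peak 18, and 4 were in the long‐only part, in peaks 43, 58, 70 and 143. From the summit, the site began 1 nt upstream in peak 70, 37 to 41 nt upstream in peaks 143, 43 and 18, and 99 nt downstream in peak 58. From the centre of the peak, the site began at −5.5 nt in peak 18, −8.5 nt in peak 43, 5 nt in peak 70, −27 nt in peak 143 and 81.5 nt in peak 58, with negative values upstream. In 3 of the 5 peaks the site thus lay closer than 10 nt to the centre. The median height of the 5 peaks was 443 (295 to 1416) and that of the other 153 was 238 (6 to 1870), so the ranges overlapped widely.

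The MALAT1 span held no ACTAAC on its strand, so its peaks could hold none. The share of 0 of 11 is thus fixed by the sequence, and its comparison with other peaks carries no information. The near variant ACTAAT occurred once in MALAT1, outside the peaks, and in 6 places in NEAT1, of which 3 were inside peaks.

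The shorter TAAC core was present in more of the peaks. It occurred in 34 NEAT1 peaks (21.5%), in 4 MALAT1 peaks (36.4%) and in 26.0% of the other nuclear peaks, or in 2.40, 6.06 and 5.30 copies per kb. In MALAT1 it was found only in the cluster, in peaks 2, 4, 7 and 8. Among peaks with TAAC, a copy began within 20 nt of the summit in 18 of 34 NEAT1 peaks (52.9%) and in 4105 of 6201 other nuclear peaks (66.2%), which are narrower, and in MALAT1 the nearest copies began 27 to 43 nt away. Of all 53 copies in NEAT1, 42 (79.2%) lay inside peaks, whereas 61 of 133 copies of TAAT (45.9%) did so, where 74.6% of positions were inside. On the opposite strand, 48 of 78 copies of TAAC (61.5%) and 43 of 89 of TAAT (48.3%) lay inside. The low share of TAAT was thus found on both strands. The 42 copies of TAAC include those within the 5 ACTAAC sites.

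Covered and uncovered NEAT1 sequence differed in base composition. Inside peaks, G and C made up 47.7% of bases, and outside 31.9%, while T made up 29.2% and 39.9%. The uncovered stretches were thus rich in T and A. Runs of AAAAAA occurred at 1.14 per kb inside and 7.14 per kb outside, and GGGAGG at 1.56 and 0.408 per kb. The commonest hexamer in the peaks, TGTGTG, occurred at 3.12 per kb inside and 3.47 per kb outside. In MALAT1 the contrast in G and C was smaller, with 46.8% inside peaks and 41.4% outside. The part of base composition in where peaks were called was not tested.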

How the data were processed

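QKI‐5 HITS‐CLIP was performed on mesHMLE cells, with 7 immunoprecipitation libraries and 2 size‐matched input libraries. Monomer and dimer libraries with the same number in their titles belong to the same technical replicate. The authors trimmed reads with cutadapt 1.3, mapped them to hg19 with TopHat2 2.0.10, collapsed duplicates by molecular barcode, kept alignments with a mapping quality of at least 10, pooled the libraries and called peaks and their summits on each strand with MACS2 2.1.1.20160309 (fold 3, q 0.05). Peak height is a signal deposited by the authors with no unit stated, a whole number taken here as the pile‐up of pooled reads, and the depth of each library is unknown. Starts were read as counted from 0 and are printed counted from 1. The genome sequence was GRCh37, with the GENCODE release 44 annotation lifted to it. Comparisons used nuclear peaks only, without the 18 on the mitochondrial chromosome.

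Peaks with and without ACTAAC were compared with Fisher's exact test (odds ratio with 0.5 added to each cell) and sites with an exact binomial test. Benjamini-Hochberg adjustment covered 4 tests, of which the 2 with MALAT1 carry no information because its span holds no ACTAAC. The NEAT1 share is bounded by the 5 sites of its span. For each other setting, its p-value took the place of the main value among the 4 tests. Adjusted values therefore do not cover the number of settings, which was 14 for the NEAT1 share against other peaks. The peaks named were the 5 tallest and the first and last of each RNA. The sequences are those of the tallest peaks with ACTAAC and the tallest without it, and the genes named were the 5 next in exonic peak density. The members, lists and tests were chosen with earlier results of these data known, among them a comparison of NEAT1 with other peaks. The hexamers beside ACTAAC were chosen after the values were seen. Scripts were tested on simulated data. Python 3.11.15, numpy 2.4.6, scipy 1.17.1, pandas 2.3.3, statsmodels 0.14.6, pysam 0.24.0, matplotlib 3.10.9 and samtools 1.23.1 were used.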

Additional observations from a re-analysis of the deposited data

How the results depend on the processing

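For NEAT1, 22 of 29 recomputed values kept their direction and their side of the threshold, or for counts lay within 1.5 times the value given. This tally does not measure robustness. Taking peaks by overlap with the span or by summit, for example, left the NEAT1 count at 158. Values of MALAT1 motif content were 0 under every setting, and nothing is read from them. The lower ACTAAC share of NEAT1 lost its call with adjoining peaks merged (odds ratio 0.619, exact p = 0.272, adjusted 0.668) and among adjoining peaks only (0.492, exact p = 0.0949, adjusted 0.380). With merging it was also lost against the other lncRNA peaks (0.718, adjusted exact p = 0.822) and exonic peaks (0.681, adjusted exact p = 0.822). These, the comparison of adjoining peaks and those of the top 10% by height, of starts counted from 1 and of the furthest short transcript end, were added after the data were seen. Merging left 78 peaks in NEAT1 and 5 in MALAT1, and the density of the short over the long‐only part became 0.676. With ACTAAT counted as well, the odds ratio of NEAT1 against MALAT1 went from 0.824 to 1.299 (exact p = 1), which comes from the 0.5 added to each cell, as the NEAT1 share was the higher in both and no MALAT1 peak held either motif, and the sites of NEAT1 inside peaks fell to 0.993 times the even share (exact p = 1). The MALAT1 sites had no value to test, because the span holds no ACTAAC.

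No paired analysis was possible because the libraries were pooled before the peaks were called. Leaving out a library was not run for the same reason. The list gives no read depth, no input level and no RNA amount, which limits every statement on height.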
